A study of Mus musculus with 6 samples.

Results

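The cells described here are the tumor cells of R499 melanomas in which transcripts of Kalrn were detected, and they were chosen by that measured value alone: a Kalrn level above 0 TPM, a unit that scales a gene's reads to the length of its transcripts and to the total of the cell. They were taken from 156 R499 cells with over 1000 genes detected, meaning genes above 0 TPM, and with mitochondrial transcripts below 10% of the cell's total. Of these, 76 cells were Kalrn-positive and 80 had Kalrn at 0 and are called Kalrn-negative. They belong to a set of 507 cells that passed the same limits, out of 602 cells sequenced.

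The cells came from tumors of 6 C57BL/6 mice in 3 conditions, with 2 mice in each condition, and all tumors grew under the skin until day 15. B16 is the mouse melanoma line B16-F10 without treatment. B16PD1 is the same line in mice given 200 ug of anti-PD1, an antibody against an inhibitory receptor of T cells, on days 5, 8, and 11. R499 is a line that was grown out of a B16 tumor that had relapsed after radiation combined with anti-CTLA4, and it was implanted in mice without further treatment. R499 is therefore a single derived line, so that what separates it from B16 cannot be told apart from chance differences between 2 cell lines. The cells were sorted as CD45-negative, which removes most blood cells, and libraries of full-length transcripts were made with Smart-seq on the ICELL8 platform. The 2 R499 tumors are named R499_015 and R499_016 after the names in the deposited table, and nothing in the labels ties these names to the numbered samples. The methods state that both flanks of a mouse were injected, so a tumor name may stand for cells of both flanks. No read counts were used here, so the depth per cell is unknown and the number of genes detected stands in for it.

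Kalrn encodes kalirin, a large protein that turns on small GTPases by making them exchange GDP for GTP, and it is known above all for shaping dendritic spines of neurons. Its close relative is Trio. Rac1, RhoG, and RhoA are the switches that such proteins load, and Cdc42 is a further such GTPase. When loaded, Rac and Cdc42 activate PAK kinases, which act through LIM kinases on cofilin, a protein that cuts actin filaments. In mouse, Kalrn (ENSMUSG00000061751) lies on the minus strand at chr16:33969073-34573532 (GRCm38, the assembly that mm10 names), with 21 annotated transcripts, 14 of them protein coding and between 2690 and 10438 bases long. The table gives 1 value per gene, so the isoform that was expressed was not resolved.

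Kalrn was detected in 28 of 81 cells of R499_015 (34.6%, 95% Wilson interval 25.1 to 45.4%) and in 48 of 75 cells of R499_016 (64.0%, 52.7 to 73.9%). These intervals cover counting error over the cells of a single tumor each, so the difference between the R499 tumors was not tested. The median number of genes detected was 3141 in R499_015 and 3682 in R499_016, and its part in the difference was not tested. Outside R499, the gene was found in 1 of 91 B16_007 cells, 1 of 86 B16_008 cells, 2 of 86 B16PD1_000 cells, and 0 of 88 B16PD1_002 cells, which allows a share of up to 3.41%. These 4 cells held 1.67, 15.3, 6.71, and 18.4 TPM. A further 20 R499 cells with Kalrn failed the limits on cells, 7 in R499_015 and 13 in R499_016, and are not among those described. Outside R499, 1 cell with Kalrn failed the limits, in B16PD1_002, and it held 5.57 TPM.

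**Figure D1:**
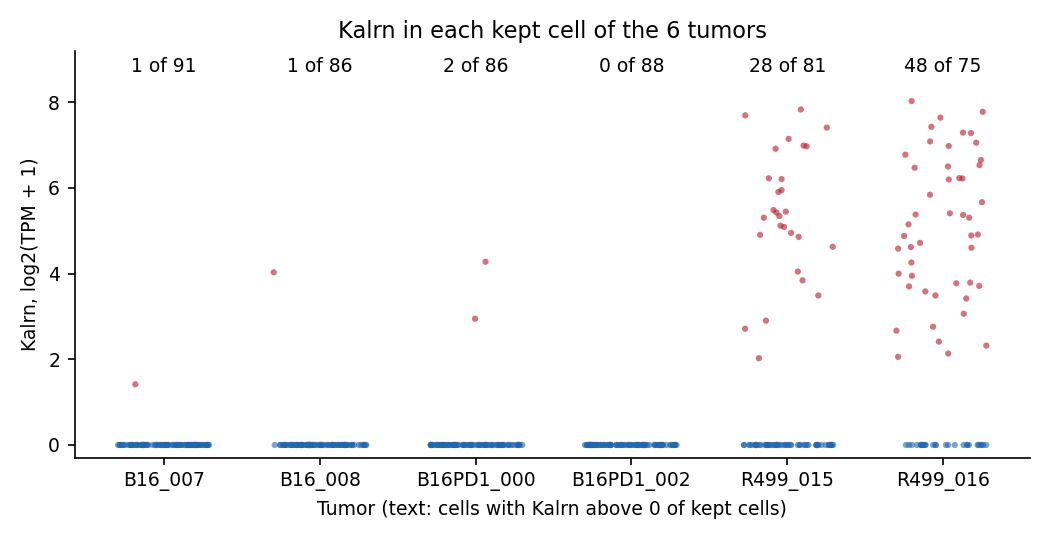
Kalrn level, log2(TPM + 1), on the vertical axis in every retained cell of the 6 tumors on the horizontal axis; red points are cells with Kalrn above 0, blue points cells at 0, and the text above gives their number. Kalrn was above 0 in 28 of 81 and 48 of 75 cells of the R499 tumors and in at most 2 cells of any other tumor.

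The level of Kalrn spanned a wide range among the positive cells. In R499_015 it ran from 3.07 through a median of 40.8 to 226 TPM, and in R499_016 from 3.16 through 31.8 to 260 TPM. Of the 76 cells, 11 held less than 10 TPM, 48 held 10 to 100 TPM, and 17 held 100 TPM or more. No read counts were used, so these values do not show how close a cell lay to the limit of detection. The 6 positive cells with the lowest values held 3.07, 3.16, 3.39, 3.99, 4.32, and 5.35 TPM, and all Kalrn-negative cells held 0. For scale, 1454 other genes were detected in 40 to 60% of the R499 cells; the median TPM in cells where they were detected had a median of 47.1 over these genes, against 38.5 for Kalrn.

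Kalrn-positive cells had more genes detected than Kalrn-negative cells of the same tumor. The median was 3634 (range 2053 to 5248) against 2827 (1007 to 6080) in R499_015, and 4085 (1154 to 5680) against 2573 (1111 to 5708) in R499_016. The ranges overlapped in both tumors. With 2 tumors a sign-flip permutation test cannot give a two-sided p below 0.5, so none is given. The gap was not peculiar to Kalrn: for each of the 1454 genes found in 40 to 60% of R499 cells, cells with the gene also had more genes detected in both tumors. With the gene itself left out of the number, the gap had a median over these genes of 1287 (quartiles 1050 and 1486) in R499_015 and 1499 (quartiles 1404 and 1649) in R499_016, against 806 and 1511 for Kalrn. The mitochondrial share was 3.65% in Kalrn-positive against 2.93% in Kalrn-negative cells of R499_015, and 3.28% against 2.51% in R499_016 (medians).

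When the cells of a tumor were divided into quartiles by genes detected, the share of Kalrn-positive cells in R499_015 was 14.3%, 30%, 55%, and 40% from the lowest to the highest quartile. In R499_016 it was 42.1%, 52.6%, 77.8%, and 84.2%. R499_016 had the higher share in each quartile, but the quartiles were cut within each tumor and do not match in genes detected. The second, for example, ran from 2308 to 3141 genes in R499_015 and from 2393 to 3682 in R499_016. The level in positive cells fell from the lowest to the highest quartile, with a median of 124, 51.3, 42.0, and 28.3 TPM in R499_015 and of 80.6, 64.3, 26.1, and 19.0 TPM in R499_016. Over the positive cells, Spearman's rho between the number of genes detected and the Kalrn level was -0.34 in both tumors (n = 28 and 48 cells); cells of one tumor share a library preparation, and TPM sums to the same total in every cell, so this is a description of these cells. Because detection of Kalrn moved with the number of genes detected, the differences tested below were adjusted for it, whereas the numbers of cells with a gene, TPM values, and class means are given without adjustment.

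**Figure D2:**
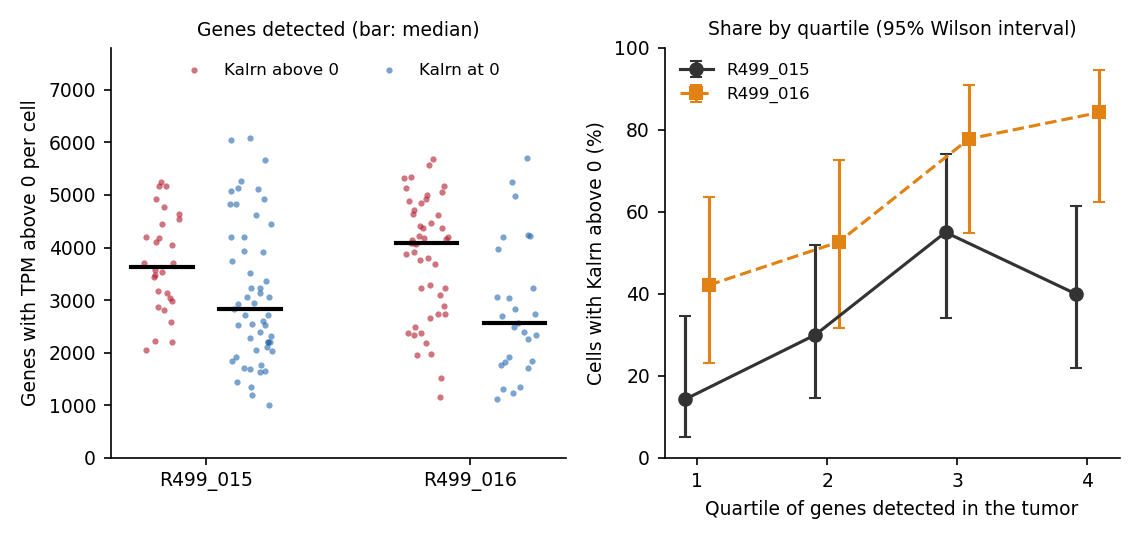
Left, number of genes with TPM above 0 in each cell of the 2 R499 tumors, by Kalrn class (bar: median). Right, percentage of cells with Kalrn above 0 in each quartile of genes detected, with 95% Wilson intervals; the share went from 14.3% in the lowest to 40% in the highest quartile of R499_015 and from 42.1% to 84.2% in R499_016.

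The Kalrn-positive cells were melanoma cells by their markers. Tyrp1, Dct, Pmel, and Mlana, which encode enzymes and structural proteins of the melanosome, were detected in all 76 cells. Mitf, the master regulator of the melanocyte lineage, was detected in 73 of 76 positive and 69 of 80 negative cells. Of 19 melanocyte genes, 18 were seen in either class, Ednrb being at 0 in both. The summed TPM of the list had a median of 20004 in positive and 19920 in negative cells.

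Markers of other cell types were rare. The marker found most often among the positive cells was Fcer1g (immune, 3 of 76), Pdgfrb (fibroblast, 3 of 76), Vwf (endothelial, 3 of 76), Mylpf (skeletal muscle, 5 of 76), Dsp (keratinocyte, 1 of 76), and Fabp4 (adipocyte, 1 of 76). The defining genes Ptprc, which encodes CD45, Col1a1, Pecam1, and Krt14 were each found in 0 of 76 cells, which allows a share of up to 3.95%. The summed TPM of each of these 6 lists had a median of 0 in both classes, and its highest value in a single positive cell ranged from 1.89 TPM for adipocyte markers to 488 TPM for muscle markers.

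As Kalrn is best known from neurons, neuronal and Schwann cell genes were looked at apart. Of 12 neuronal markers 9 were at 0 in every positive cell, among them Rbfox3, Snap25, Syt1, and Stmn2. The most frequent was Tubb3, a tubulin of neurons, in 53 of 76 positive and 40 of 80 negative cells; its adjusted difference was 1.07 in R499_015 and -0.51 in R499_016, opposite in sign. Mag and Prx, genes of myelinating Schwann cells, were at 0 in all 76 cells. Mbp, which encodes myelin basic protein and belongs to the same list, was found in 74 of 76 positive and 60 of 80 negative cells.

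The comparison across all genes asked which genes went with Kalrn within a tumor. In each R499 tumor the mean log2(TPM + 1) of Kalrn-positive cells was compared with that of Kalrn-negative cells after adjustment for each cell's number of genes detected. The 2 differences per gene, 1 from each tumor, were tested with limma, and single cells were not counted as replicates. Values below are these adjusted differences, positive minus negative, on the log2(TPM + 1) scale, averaged over both tumors with SE and n = 2 tumors unless a tumor is named. The SE, intervals, and p-values rest on the spread of genes at a similar level. They do not measure how far a gene's own 2 tumors lie apart. This scale understates the change of genes with low values. The labels call the tumors separate mice of 1 group.

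Almost nothing passed. Of 9838 genes tested, none was higher (0%) and 1 was lower (0.0102%) in Kalrn-positive cells at a Benjamini-Hochberg adjusted p below 0.05. That gene was Ubb, which encodes polyubiquitin. The second smallest adjusted p was 0.393 (limma). Without adjustment, 557 genes (5.66%) had p below 0.05, of which 312 were higher and 245 lower. The median SE of a gene was 0.39, so that a typical gene would need a difference well above 1 to pass at this size.

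No pattern of differences common to both tumors was detected, though error in each tumor's differences could hide a weak one. The 2 differences had the same sign for 4952 of the genes (50.3%). Across genes, Pearson's r between the tumors was 0.016 and Spearman's rho 0.013; genes are not independent replicates, so these are descriptions. The differences had an SD of 0.54 in R499_015 and 0.58 in R499_016 across genes. A total of 722 genes in R499_015 and 868 in R499_016 differed by more than 1 in either direction, and of those that did so in both tumors 67 had the same sign and 52 the opposite sign.

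**Figure D3:**
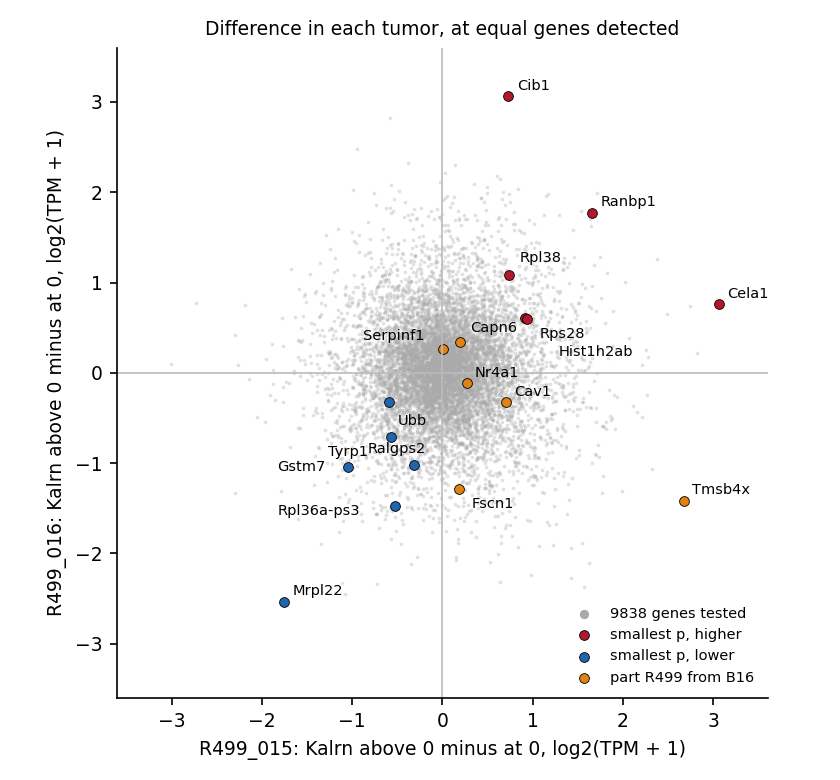
Adjusted difference between cells with Kalrn above 0 and at 0, log2(TPM + 1), in R499_015 (horizontal) and R499_016 (vertical), for 9838 genes (grey), the 6 genes of smallest p in each direction (red, blue), and 6 genes that part R499 from B16 (orange). The cloud has no slope (Pearson's r 0.016 across genes), and of the labelled genes Ubb alone passed.

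Ubb was the gene with the highest mean level of all genes tested, 13.93 on the log2 scale, and was detected in every R499 cell. Its TPM ran from 2488 through a median of 9099 to 39463 in positive cells and from 2914 through 16898 to 83710 in negative cells of R499_015. In R499_016 it ran from 3123 through 14322 to 90118 in positive and from 1642 through 30891 to 86039 in negative cells. The median positive cell thus spent 0.910% of its TPM on Ubb against 1.69% for the median negative cell in R499_015, and 1.43% against 3.09% in R499_016. The ranges over cells overlapped widely.

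At equal genes detected Ubb was lower by a difference of -0.46 (SE 0.094, 95% interval -0.64 to -0.27, adjusted p = 0.0112 by limma), with -0.59 in R499_015 and -0.32 in R499_016. The level of Ubb also moved with genes detected: in negative cells its mean was 14.27 in the lowest and 13.94 in the highest quartile of R499_015, and 14.78 and 14.02 in R499_016. Within quartiles of genes detected, its mean was lower in positive cells in 7 of 8 comparisons; the exception was the lowest quartile of R499_016, with 14.89 against 14.78. The quartiles hold the same cells that gave the call, so they restate it and add no separate support. The means of Ubb in positive cells, 13.38 in R499_015 and 13.81 in R499_016, were below those of all 4 B16 and B16PD1 tumors (14.29 to 14.78), as was the mean of negative cells in R499_015 (14.05), whereas that of negative cells in R499_016 (14.49) lay within that range. The call was lost in 8 of 16 other ways of running the comparison; in 1 of these, detection, Ubb could not be tested. The adjusted p was 0.912 without limma's trend of spread on level, 0.983 without the replicate block, that is with the cells' tumor not used to pair the classes, and 0.882 with cells outside the limits added. Reads of the ubiquitin repeats can also be shared with other ubiquitin genes, so the level of Ubb is uncertain.

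Tyrp1, which encodes a melanosomal enzyme of eumelanin synthesis, had the third smallest p and did not pass. Its TPM in R499_015 ran from 785 through a median of 2893 to 5530 in positive cells and from 1296 through 3621 to 16034 in negative cells. In R499_016 it ran from 510 through 3111 to 11446 in positive and from 929 through 4587 to 11435 in negative cells. The difference was -0.64 (SE 0.17, 95% interval -0.97 to -0.31, adjusted p = 0.393 by limma), with -0.57 in R499_015 and -0.71 in R499_016. In each of the 8 quartiles of genes detected the mean of Tyrp1 was lower in positive cells, by between 0.12 and 1.21 in size. The largest, in the lowest quartile of R499_015, set 3 positive against 18 negative cells. Tyrp1 was named for its small p in these same cells, so the quartiles restate that difference and add no separate support. Adjusted for strata of genes detected in place of a straight line, Tyrp1 passed, together with Ubb and 3 further genes.

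**Figure D4:**
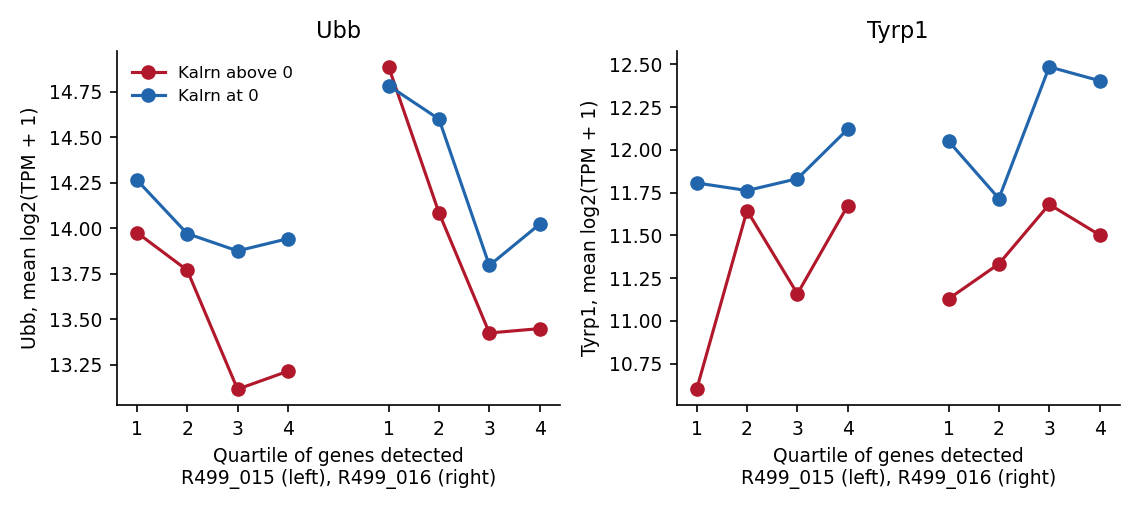
Mean log2(TPM + 1) of Ubb (left) and Tyrp1 (right) in cells with Kalrn above 0 (red) and at 0 (blue), by quartile of genes detected in R499_015 and R499_016; points are means over 3 to 18 cells, without error bars, and the vertical axes do not start at 0. Red lies below blue in 7 of 8 quartiles for Ubb and in 8 of 8 for Tyrp1.

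The 6 genes of smallest p that were on the positive side in both tumors did not pass (adjusted p 0.393 to 0.418, limma). Cib1, which encodes a calcium and integrin binding protein, had 1.90 (SE 0.52), but its 2 tumors were far apart, with 0.73 and 3.07. Ranbp1, a cofactor of the Ran GTPase in nuclear transport, had 1.72 (SE 0.48) with 1.66 and 1.78, and was detected in 28 of 28 positive and 38 of 53 negative cells of R499_015 and in 42 of 48 and 15 of 27 of R499_016. Cela1, an elastase, had 1.91 (SE 0.55) with 3.06 and 0.76. The ribosomal protein genes Rpl38 and Rps28 had 0.91 (SE 0.27) and 0.77 (SE 0.22). Hist1h2ab, a histone gene of the replication-linked kind, had 0.76 (SE 0.21) and was detected in 4 of 28 and 4 of 48 positive cells and in 0 of 53 and 0 of 27 negative cells, which allows shares of up to 5.66% and 11.1%. All 6 passed when the number of genes detected was not allowed for.

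On the negative side, Mrpl22, a protein of the mitochondrial ribosome, had -2.15 (SE 0.55), with -1.76 and -2.53. It was detected in 10 of 28 positive and 29 of 53 negative cells of R499_015 and in 21 of 48 and 15 of 27 of R499_016. Gstm7, a glutathione transferase, had -1.04 (SE 0.28), and it was detected in 5 of 76 positive and 13 of 80 negative cells. The ribosomal pseudogene Rpl36a-ps3, whose reads can come from its parent gene, had -1.0 (SE 0.27) with 2 positive and 8 negative cells. Ralgps2, which activates Ral GTPases, had -0.67 (SE 0.19) and was detected in 0 of 28 and 0 of 48 positive cells, which allows up to 10.7% and 6.25%, and in 3 of 53 and 4 of 27 negative cells. Ralgps2 met the limit for testing through negative cells alone, so its sign and rank are likewise no support. None of these 4 passed (adjusted p 0.393, limma), and the last 3 rest on few cells.

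The switches that kalirin acts on did not differ in a detectable way. Rac1 was detected in 53 of 76 positive cells and had a difference of -0.14 (95% interval -1.20 to 0.91), with 0.15 in R499_015 and -0.44 in R499_016. Rhog had -0.61 (-1.69 to 0.46), with -1.60 and 0.37. Rhoa, at a mean level of 7.74, had -0.05 (-0.82 to 0.73), and Cdc42, at 8.18, had -0.0030 (-0.72 to 0.71). Trio was rarely detected, in 7 of 76 positive and 3 of 80 negative cells, and had 0.17 (-0.17 to 0.51). Each adjusted p was 0.983 or above (limma). The intervals of Rac1 and Rhog include differences of 1 in size, so these data do not show that the levels were alike.

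Around the switches, 23 of 27 genes of the list of these GTPases with PAK, LIM kinase, and cofilin were measured well enough to be tested; 0 passed, 12 were positive, and the median difference was 0.02, as over all genes (0.02). Cfl1, Arhgdib, and Cdc42 were its most abundant genes. Cfl2, the muscle type of cofilin, was the list's only gene with unadjusted p below 0.05, with 1.22 (SE 0.45, adjusted p = 0.633 by limma) and 0.85 and 1.59 by tumor. Of 27 Trio and other exchange factor genes 16 were tested, 0 passed, and the median was 0.04. Ect2, an exchange factor needed for cell division, had 1.17 (SE 0.49, adjusted p = 0.762 by limma). Of 15 genes for known partners of kalirin only 7 were tested. Of these 0 passed, 2 were positive, and the median was -0.15. Nck1, an adaptor between receptors and actin, had -1.08 (SE 0.50, adjusted p = 0.861 by limma).

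A list of 6 genes besides Kalrn, chosen on these same samples because they part R499 from B16 or B16PD1, was followed into both Kalrn classes. For 6 of the 6, the Kalrn-negative cells of both R499 tumors lay outside the range of the 4 other tumors, as the Kalrn-positive cells did. Because the genes were chosen for parting these same tumors, this count was largely set by the choice. No share over all genes is given beside it, so it is a description of these 6 genes only. Cav1, the main protein of caveolae, had a mean log2(TPM + 1) of 4.08 and 3.56 in negative and 5.10 and 4.06 in positive cells, above 1.16 to 2.31 in the B16 and B16PD1 tumors. Capn6, a calpain without protease activity, had 3.44 and 2.65 in negative and 4.08 and 3.86 in positive cells, above 1.44 to 1.91. Fscn1, which bundles actin in protrusions, had 1.75 and 2.03 in negative and 2.14 and 1.73 in positive cells, above 0.21 to 0.44. In these chosen genes, the means of cells without detected Kalrn thus lay on the same side of the other tumors as those of Kalrn-positive cells.

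Tmsb4x, which binds actin monomers, had 4.23 and 4.82 in negative and 7.11 and 4.60 in positive cells, above 2.32 to 3.21. Nr4a1, an immediate early nuclear receptor, had 2.38 and 2.49 in negative and 3.09 and 2.45 in positive cells, below 4.0 to 4.99. Serpinf1, a secreted inhibitor of vessel growth, had 0.39 and 0.88 in negative and 0.46 and 1.39 in positive cells, below 2.34 to 3.20. Between the classes, at equal genes detected, none of the 6 passed (each adjusted p 0.983 or above, limma). Tmsb4x had the tumors furthest apart, with 2.67 in R499_015 and -1.42 in R499_016. The differences of the others were 0.19 for Cav1, 0.27 for Capn6, -0.55 for Fscn1, 0.08 for Nr4a1, and 0.13 for Serpinf1. Capn6 was the only 1 of the 6 whose per-tumor means did not overlap between classes before the number of genes detected was allowed for.

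**Figure D5:**
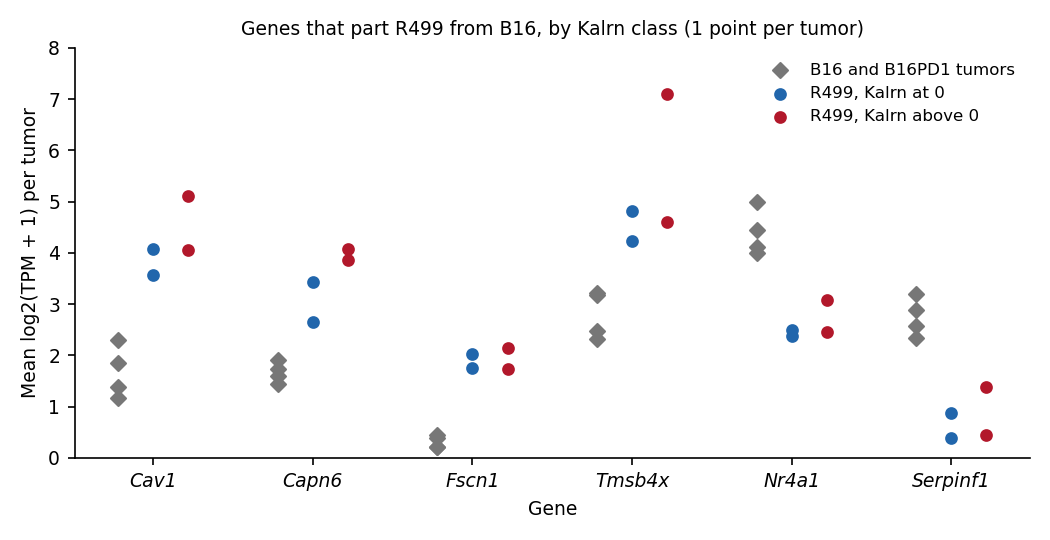
Mean log2(TPM + 1) of 6 genes, 1 point per tumor: grey, the 4 B16 and B16PD1 tumors; blue, Kalrn-negative cells of the 2 R499 tumors; red, Kalrn-positive cells. For all 6 genes, which were chosen for parting R499 on these same tumors, both the blue and the red points lie outside the range of the grey points.

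Programs of the melanoma cell were then described by lists, each beside all genes tested, which had a median difference of 0.02 with 5189 of 9838 genes positive. None of the lists held a gene that passed. The melanocyte lineage list, led by Dct, Pmel, and Tyrp1, had 5 of 18 positive and a median of -0.09. Gpnmb, a melanosome glycoprotein, was the only gene on the positive side with an unadjusted p below 0.05, with 0.45 (SE 0.23, adjusted p = 0.880 by limma). The list of dedifferentiation and mesenchymal genes had 9 of 17 positive and a median of 0.03, and Fn1, which encodes fibronectin, had 1.05 (SE 0.41, adjusted p = 0.720 by limma).

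The interferon-stimulated list stood highest among the functional lists with a median of 0.24 and 24 of 32 genes positive, of which 4 had unadjusted p below 0.05. Among all 9838 genes tested, 312 were higher and 245 lower at that limit. Ifit3, an antiviral protein, had 1.28 (SE 0.43), with 1.33 in R499_015 and 1.23 in R499_016. Ddx58, the RNA sensor RIG-I, had 0.87 (SE 0.36), Irf7, a driver of type I interferon, 0.71 (SE 0.36), and Gbp7 0.50 (SE 0.24). Gbp7 differed in sign between the tumors, with 1.05 in R499_015 and -0.06 in R499_016. Their adjusted p-values were 0.554 to 0.876 (limma). The list's median was 0.30 in R499_015 and 0.13 in R499_016, 17 of the 32 genes had the same sign in both tumors, and its most abundant members were Ifi27, Lgals3bp, and Bst2. Genes for MHC class I presentation, which shows peptides to T cells, had a median of 0.05 with 9 of 17 positive.

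The checkpoint ligands, through which tumor cells hold back T cells, had a median of -0.05 with 1 of 8 positive. Cd274, which encodes PD-L1, was detected in 7 of 28 positive and 16 of 53 negative cells of R499_015 and in 13 of 48 and 2 of 27 of R499_016. Its difference was -0.72 in the first and 0.53 in the second tumor, -0.10 on average (95% interval -0.84 to 0.65, adjusted p = 0.995 by limma).

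No gene of the cell cycle lists passed. The S phase list had 15 of 38 positive and a median of -0.15, and the G2/M list 25 of 43 and 0.06. Prim1, of the DNA primase, had 1.07, and Rfc2, of the clamp loader, -1.04, in opposite directions within the S phase list. In the G2/M list Kif2c, Tacc3, and Smc4, which serve the spindle and chromosome condensation, had 0.84, 1.09, and 1.09 (SE 0.29, 0.54, and 0.53; adjusted p 0.554 to 0.876, limma). With Ect2, given above, 4 of the 43 genes were higher at an unadjusted p below 0.05 and 0 were lower. Over all 9838 genes, 312 were higher and 245 lower at that limit. The immediate early list had a median of 0.02 with 10 of 19 positive, and Myc had 1.10 (SE 0.55). The hypoxia and glycolysis list had 0.06 with 17 of 26 positive, and the list of MAPK feedback genes 0.13 with 8 of 12. In the hypoxia and glycolysis list 2 genes had an unadjusted p below 0.05, both higher: Adm, described below, and Ankrd37. Ankrd37 had 1.14 (SE 0.48, adjusted p = 0.781 by limma), with 0.90 in R499_015 and 1.37 in R499_016.

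Genes that lie beside Kalrn on chromosome 16 were looked at as a group. Of 28 genes of the table within 1 Mb of Kalrn, 13 were tested: Lrch3, Iqcg, Rpl35a, Osbpl11, Snx4, Zfp148, Umps, AC165079.1, Ccdc14, Mylk, Hacd2, Sec22a, and Pdia5. None passed, 7 of 13 were higher in positive cells, and the median difference was 0.14. Snx4, a sorting nexin at chr16:33251442-33300269, had the smallest unadjusted p, 0.0888, with 0.94 (SE 0.55) and 1.20 and 0.67 by tumor. Umps, the nearest tested gene on one side, had 0.49 (SE 0.48), and Ccdc14 on the other side -0.03 (SE 0.21). The processed pseudogene AC165079.1, which lies inside the span of Kalrn on the same strand, had -0.29 (SE 0.39), with -1.35 and 0.77. It was detected in 0 of 28 positive and 11 of 53 negative cells of R499_015 and in 8 of 48 and 3 of 27 of R499_016.

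Once genes detected were allowed for, Kalrn-positive and Kalrn-negative cells had similar shares of positive cells among their nearest neighbors in expression space. After a linear fit on genes detected was subtracted and Kalrn was left out, each cell's 15 nearest neighbors within its tumor were found in 10 principal components of the 1000 most variable genes. In R499_015, 45.5% of the neighbors of positive cells were positive, against 43.9% of the neighbors of negative cells. In R499_016 it was 77.2% against 78.0%. The shares expected from the numbers of cells alone were 33.8% and 35% in R499_015 and 63.5% and 64.9% in R499_016, so both classes had more positive neighbors than these, and to a like extent. With the number of genes detected left in, they were 43.8% against 36.1% and 71.1% against 62.5%.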

How the data were processed

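The authors sequenced sorted tumor cells with Smart-seq, aligned reads with STAR in 2-pass mode, quantified them with RSEM, and deposited TPM per gene and cell for 25215 genes; the submitters' processing notes name mm10. Tool versions are not given in the sources used here. Positions came from GENCODE on GRCm38.

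Retained cells had over 1000 genes detected and 37 mitochondrial genes below 10% of the total, and tested genes had TPM above 0 in more than 5 retained R499 cells. In each R499 tumor, log2(TPM + 1) was regressed by least squares on Kalrn class and the number of genes detected, Kalrn left out of that number and of the test. The 2 class coefficients per gene entered limma 3.58.1 (R 4.3.3) as an intercept, with eBayes and a trend on mean level, two-sided, Benjamini-Hochberg adjusted over all 9838 genes. eBayes gave an infinite prior, so a gene's spread was that of genes at a similar level rather than its own. Both classes came from the same tumor, so the tumor paired them; without this replicate block Ubb had an adjusted p of 0.983. Scripts were tested on simulated data. No other sign of depth than genes detected was used, and doublets were not called. No 2 of the 602 cells shared a well pair. Cells are not replicates: shares carry 95% Wilson intervals, and an upper limit for a count of 0 is 3 cells.

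The cells and the gene lists were chosen with earlier results of these data known, the list of 6 genes that part R499 from B16 on these very samples. Genes named are the 6 of smallest p in each direction with the same sign in both tumors (fewer than 10 passed), that list, Trio, Rac1, Rhoa, Rhog, Cdc42, Cd274, tested genes within 1 Mb of Kalrn, the most abundant genes of lists, and the most frequent marker of each cell type; list genes with unadjusted p below 0.05 were named after their values were seen.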

Additional observations from a re-analysis of the deposited data

How the results depend on the processing

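Calls of higher and lower genes were 0 and 1 in the comparison as reported, and Ubb was called in 8 of 16 alternatives. Without a covariate 92 genes were called higher and 3 lower, and the median difference of all genes moved from 0.02 to 0.28. With strata of genes detected 5 were called lower (Ubb, Tyrp1, Gstm7, Mrpl22, Zfp975), and with a pseudocount of 10 or with cells of over 2000 genes 2 each (Ubb, Rpl36a-ps3). The count was 0 in both directions with detection in place of level, where genes found in every cell of a tumor drop out, and 0 with no gene filter, no cell filter, members at 10 TPM or more, or limma without trend. It was also 0 without the replicate block, where 480 genes had an unadjusted p below 0.05, and in 2 alternatives chosen after seeing the data: the block of well numbers (18 to 26 or 54 to 62) as a covariate (adjusted p of Ubb 0.153) and the Kalrn level as a number (0.303). Other causes of these losses were not tested. A single tumor leaves no test; Ubb was -0.59 without R499_016 and -0.32 without R499_015. The interferon list's median was above 0 in 14 of 14 alternatives (0.10 to 0.47), as was that of all genes tested (0.0044 to 0.28), and the melanocyte list's in 1 of 14 (-0.20 to 0.06).

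Of 55 named genes, 16 that did not pass changed sign in some alternative. Without a covariate the differences were 0.0089 for Ccdc14, 0.043 for Fscn1, 0.19 for Cd274, 0.21 for Cdc42, 0.33 for Hacd2, 0.34 for Rhoa, 0.38 for Rhog, and 0.46 for Rac1. With strata they were -0.15 for Serpinf1, -0.22 for Nr4a1, 0.049 for Pdia5, and 0.18 for Rac1, and with a squared term 0.035 for Pdia5. As differences in the share of cells with detection they were -0.0080 for Capn6, -0.026 for Cav1, -0.031 for Nr4a1, 0.0011 for Ccdc14, 0.0034 for Pdia5, and 0.034 for Rhoa. With a pseudocount of 0.1 they were -0.023 for Nr4a1, 0.018 for Cdc42, and 0.062 for Rhoa, and with 10 they were 0.017 for Hacd2. Without the cell filter they were -0.23 for Rpl35a, 0.047 for Pdia5, 0.059 for Cd274, 0.064 for Cdc42, and 0.066 for Hacd2. Over 2000 genes they were -0.037 for Serpinf1, -0.041 for Nr4a1, -0.041 for Rpl35a, -0.35 for Zfp148, 0.047 for Rac1, 0.087 for Pdia5, and 0.27 for Hacd2. Under 5% mitochondrial TPM they were -0.040 for Zfp148, -0.10 for Sec22a, 0.031 for Pdia5, 0.088 for Ccdc14, and 0.18 for Cd274. For members at 10 TPM or more they were 0.014 for Cd274 and 0.017 for Cdc42, and per log2 unit of Kalrn 0.0029 for Rhoa, 0.0037 for Cdc42, and 0.017 for Cd274.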

Other observations

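Adm and Mbp, list genes that did not pass, had the same sign in both tumors and were named after their values were seen. Adm, which encodes the vessel-dilating peptide adrenomedullin and is induced by low oxygen, had 1.67 (SE 0.50), with 1.63 in R499_015 and 1.71 in R499_016 and an adjusted p of 0.429 (limma). It was detected in 60.7% of positive and 22.6% of negative cells of R499_015 and in 47.9% and 7.41% of those of R499_016. Mbp had 1.58 (SE 0.48), with 1.17 and 1.98 and an adjusted p of 0.449 (limma); both passed without the covariate. By well number, Kalrn-positive cells made up 13 of 29 and 15 of 52 cells with first well numbers 18 to 26 and 54 to 62 in R499_015, and 28 of 46 and 20 of 29 in R499_016.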
